A study of Homo sapiens with 6 samples.

Results

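The integrated stress response regulators around ATF4 were examined in HCT116, a cell line from a human colorectal carcinoma, after overexpression of the transcription factor YY2. They are 10 genes of the 50868 in the deposited table and were taken by gene name, namely ATF4, ATF3, ATF5, DDIT3, CEBPB, TRIB3, CHAC1, DDIT4, SESN2 and EIF2AK4. The set was chosen with earlier results of these data known. The 6 samples comprise 3 of cells transfected with the YY2 overexpression vector (pcYY2) and 3 of cells transfected with the empty vector pcDNA3.1(+) (pcCon). All samples carry a plasmid, so that pcCon controls for transfection, and no untransfected or stressed cells were analysed here. The plasmids were delivered with a lipid reagent, and the share of cells that took them up is not given in the sources used here. Polyadenylated RNA was sequenced, and whether the samples of a group came from separate cultures is not stated, so that the p values measure the spread between these samples only.

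The integrated stress response is set off by kinases that phosphorylate the translation initiation factor eIF2. EIF2AK4, also called GCN2, is the kinase that senses uncharged tRNA when amino acids are scarce. Phosphorylated eIF2 lowers general translation while mRNAs such as that of ATF4 are translated better, so the amount of ATF4 protein need not follow its mRNA. ATF4 is a basic leucine zipper (bZIP) factor that pairs with C/EBP proteins and raises genes for amino acid uptake, synthesis and tRNA charging, as well as the stress effectors described here.

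Between 15158360 and 29572882 reads were counted per sample. YY2 had an FPKM (reads per gene length and sequencing depth) of 2.22, 2.52 and 1.73 in pcCon and of 11.6, 11.1 and 11.0 in pcYY2, as the labels say. Of 9 epithelial and intestinal markers, 7 averaged an FPKM of 1 or more and CDX1 had no read, and their summed FPKM was 309 to 322 in pcCon and 400 to 435 in pcYY2. This difference lay mainly in KRT8 (a mean FPKM of 62.8 and 99.1) and KRT19 (107 and 161), whereas EPCAM had 70.4 and 74.9, and CLDN7 (7.53 and 6.46) and CDX2 (4.64 and 4.41) had lower means in pcYY2. The fibroblast markers summed to 1.99 to 2.23 in pcCon and 2.20 to 2.73 in pcYY2, with COL1A2, DCN and LUM at 0 reads. Nearly all of this sum was COL1A1, with a mean FPKM of 2.04 in pcCon and 2.49 in pcYY2. The leukocyte markers summed to 0.580 to 0.766 in pcCon and 0.798 to 1.60 in pcYY2, which did not overlap, with 0 of 6 markers at a mean of 1 or more. CD68 had the highest mean of them (0.392 in pcCon and 0.689 in pcYY2). In pcYY2 sample 2, LYZ (0.535) and PTPRC (0.244) were higher than in every other sample. The endothelial markers summed to 0.0357 to 0.214 in pcCon and 0.0936 to 0.196 in pcYY2. The part of these differences in the results below was not tested. In bulk RNA, fewer cells that express a gene and less RNA per cell cannot be told apart.

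Per gene length, ATF4 was the highest of the 10 genes, with a pcCon FPKM of 121 ± 1.98 (SD, n = 3), and its mean over all samples exceeded that of 98.4% of the tested genes. DDIT4 (28.0 ± 1.51) and CEBPB (20.7 ± 0.191) followed, and the values of these 3 genes in pcCon did not overlap. TRIB3 (9.87 ± 2.48), EIF2AK4 (9.32 ± 0.0991), SESN2 (7.61 ± 0.675) and ATF5 (5.95 ± 2.11) came next, and the range of TRIB3 overlapped that of each of the other 3. CHAC1 (1.68 ± 0.278), DDIT3 (1.25 ± 0.0806) and ATF3 (0.988 ± 0.241) were the lowest, and the values of DDIT3 and ATF3 overlapped. In pcYY2 the first 3 genes kept their order, while CHAC1 moved from position 8 to position 10.

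**Figure D1:**
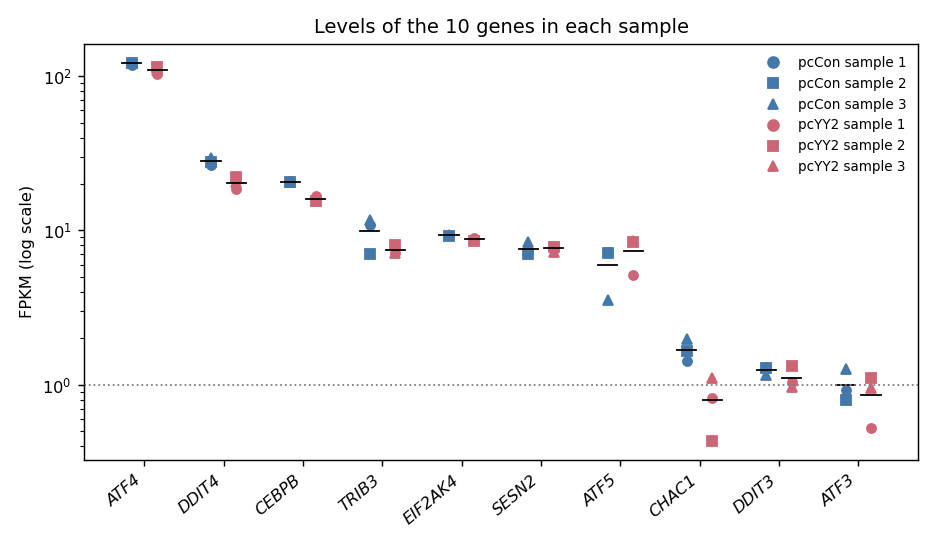
FPKM of the 10 genes on a log scale, with 1 point per sample, black bars at the group means and a dotted line at the FPKM of 1 used as a filter. ATF4 lies far above the other genes in both groups, and CHAC1, DDIT3 and ATF3 lie near the filter.

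Overexpression of YY2 was accompanied by lower mRNA of CEBPB and DDIT4, which were 0.779-fold and 0.738-fold of pcCon, while no gene of the 10 was called higher. The genes were tested within edgeR's quasi-likelihood fit over 12015 genes whose FPKM averaged 1 or more, and an adjusted p (Benjamini-Hochberg, over all tested genes) of 0.05 or less was required. ATF3 averaged 0.925 and lay under this filter, and 9 genes were tested. Of these, 2 were lower and 0 were higher, whereas 4.85% of all tested genes were lower and 4.52% were higher (9.37% in either direction). With a sample left out, CEBPB passed in 1 of 6 fits and DDIT4 in 2 of 6. Neither passed with the sample number as a block (adjusted p = 0.0780 and 0.0616, edgeR). At an unadjusted p under 0.05 there were 4 of the 9 genes, ATF4, CEBPB, CHAC1 and DDIT4, all with lower values in pcYY2, against 28.9% of all tested genes. The pcYY2 values lay below all pcCon values for these 4 genes and EIF2AK4, against 19.9% of the tested genes. They lay above for 0 of the 9 genes, against 15.9%. The median log2 fold change of the 9 tested genes was -0.14, and that of all tested genes was 0.0020.

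**Figure D2:**
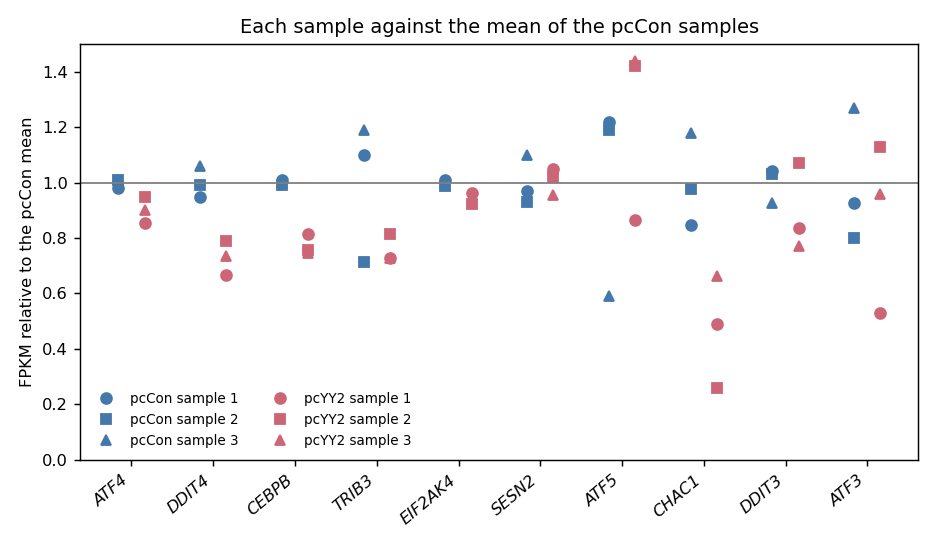
FPKM of each sample divided by the mean of the 3 pcCon samples, with 1 point per sample and genes ordered by their pcCon level. All pcYY2 points of ATF4, DDIT4, CEBPB, EIF2AK4 and CHAC1 lie below the pcCon points, while those of TRIB3, SESN2, ATF5, DDIT3 and ATF3 overlap them.

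EIF2AK4 (ENSG00000128829), at 39934146 to 40035591 of chromosome 15 (GRCh38, plus strand), is the kinase of the set. Its FPKM was 9.40, 9.21 and 9.34 in pcCon and 8.98, 8.60 and 8.76 in pcYY2, with 1988 to 3675 reads a sample. The groups did not overlap, yet the log2 fold change was only -0.07 (95% interval -0.18 to 0.03, adjusted p = 0.331). The interval holds values on both sides of 0. Of the list of 8 eIF2 kinases and their regulators, which includes EIF2AK4, all were tested, 1 was higher and 0 were lower (12.5%, against 9.37% of all tested genes called in either direction), with a median log2 fold change of -0.07. The gene that rose was EIF2AK3 (PERK), the eIF2 kinase of the endoplasmic reticulum, from an FPKM of 3.03 ± 0.0444 (SD, n = 3) to 3.74 ± 0.152, which is 0.32 on the log2 scale (SE 0.0683, adjusted p = 0.0356). It passed in 0 of 6 fits with a sample left out, and its adjusted p among all alternatives reached 0.119. EIF2AK1, the heme-regulated kinase, had 33.3 ± 0.881 in pcCon and 30.5 ± 0.420 in pcYY2 (adjusted p = 0.124). DELE1, which relays mitochondrial stress to EIF2AK1, had 7.21 ± 0.0224 and 7.65 ± 0.358 (adjusted p = 0.282).

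ATF4 (ENSG00000128272), the central factor of the response, lies on the plus strand of chromosome 22 from 39519695 to 39522685. Its FPKM was 119, 122 and 122 in pcCon and 103, 115 and 109 in pcYY2, with 6520 to 13999 reads a sample. All pcYY2 samples were below all pcCon samples by a small margin, and the log2 fold change was -0.14 (95% interval -0.25 to -0.02). Its unadjusted p of 0.0283 became 0.125 after adjustment, so that ATF4 mRNA did not pass the threshold. It did not pass in any of its 17 alternative fits either, in which the log2 fold change was between -0.18 and -0.09. Processed pseudogenes resemble ATF4, and 4 of them in the table held between 1.83% and 2.31% of the reads counted on ATF4 and on them together.

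CEBPB (ENSG00000172216) encodes C/EBP beta, a bZIP partner of ATF4 that is itself induced by stress and inflammatory signals, and lies on the plus strand of chromosome 20 from 50190734 to 50192689. Its FPKM was 20.9, 20.5 and 20.6 in pcCon and 16.8, 15.6 and 15.4 in pcYY2. The pcCon coefficient of variation (SD over mean) was 0.926%, and only 2.46% of the tested genes had a lower value. Each pcYY2 sample lay below the 3 close pcCon samples, with 504 to 902 reads a sample. The fold change was -0.36 on the log2 scale, with an SE (standard error) of 0.0633 and an adjusted p of 0.0215. With a sample left out the log2 fold change stayed between -0.39 and -0.33, but CEBPB no longer passed without pcCon sample 1 (adjusted p = 0.0711), pcCon sample 2 (0.0749), pcCon sample 3 (0.0710), pcYY2 sample 2 (0.0524) or pcYY2 sample 3 (0.0742). CEBPB-AS1, annotated on the opposite strand, had 10 reads or fewer in every sample.

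ATF3, ATF5 and DDIT3 are further bZIP factors induced downstream of eIF2 phosphorylation, and none of them passed the test. DDIT3 (ENSG00000175197), also called CHOP, promotes apoptosis under lasting stress and lies at 57516588 to 57520517 of chromosome 12, on the minus strand. Its FPKM was 1.30, 1.29 and 1.15 in pcCon and 1.04, 1.33 and 0.960 in pcYY2, with 96 to 236 reads a sample. The groups overlapped, and the log2 fold change was -0.14 (95% interval -0.51 to 0.22, adjusted p = 0.583). MARS1, a tRNA synthetase gene on the opposite strand, shares 355 of the 1307 annotated exon bases of DDIT3 and had 2527 to 5660 reads per sample. MBD6, also on the opposite strand, shares 58 of them and had 536 to 967 reads per sample. The protein-coding gene ENSG00000285133 on the same strand shares 105 and is absent from the deposited table. As the strand setting of the counting is not stated, reads in the shared bases cannot be told apart, and MARS1 itself fell by 0.40 on the log2 scale (adjusted p = 0.0273).

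ATF5 (ENSG00000169136), which is translated in a similar way to ATF4, lies on the plus strand of chromosome 19 from 49928702 to 49933935. Its FPKM was 7.25, 7.09 and 3.52 in pcCon and 5.15, 8.42 and 8.57 in pcYY2. In pcCon sample 3 it was far lower than in the other pcCon samples, and its pcCon coefficient of variation of 35.5% exceeded that of 96.0% of the tested genes. The log2 fold change of 0.33 (95% interval -0.40 to 1.05, adjusted p = 0.524) was 0.06 without pcCon sample 3. NUP62 on the opposite strand shares 565 of the 2892 exon bases of ATF5, and reads in the shared bases cannot be told apart. The NUP62 FPKM in pcCon sample 3, 7.04, lay between those of the other pcCon samples.

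ATF3 (ENSG00000162772), an early stress factor, lies on the plus strand of chromosome 1 from 212565334 to 212620777. Its FPKM was 0.916, 0.790 and 1.26 in pcCon and 0.524, 1.11 and 0.947 in pcYY2, with 78 to 320 reads a sample. With the filter lowered to 0.1, its log2 fold change was -0.14 (95% interval -0.81 to 0.54, adjusted p = 0.823). Without pcYY2 sample 1 its mean passed the filter of 1 and the sign turned, to 0.09 (adjusted p = 0.821), so no direction can be given for ATF3.

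CHAC1 had the largest fold change of the 10 genes, at 0.467-fold, but did not pass the test. It encodes a gamma-glutamylcyclotransferase that degrades glutathione and is a well-known target of the ATF4 and DDIT3 branch. CHAC1 (ENSG00000128965) lies on the plus strand of chromosome 15 from 40952962 to 40956519. Its FPKM was 1.42, 1.64 and 1.98 in pcCon, from 148, 171 and 171 reads, and 0.823, 0.432 and 1.11 in pcYY2, from 72, 73 and 117 reads. Every pcYY2 sample was below every pcCon sample, and pcYY2 sample 2 was the lowest although it was the deepest library. The coefficient of variation in pcYY2, 43.3%, exceeded that of 97.3% of the tested genes. The log2 fold change was -1.10 (95% interval -1.87 to -0.32), with an unadjusted p of 0.0122 and an adjusted p of 0.0783. Among the alternatives only DESeq2 called it (adjusted p = 0.0119), and the adjusted p values of the others lay between 0.0647 and 0.184.

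DDIT4 (ENSG00000168209), or REDD1, restrains mTORC1 under stress and low oxygen, and lies on the plus strand of chromosome 10 from 72273920 to 72276036. Its FPKM was 26.6, 27.8 and 29.6 in pcCon and 18.6, 22.1 and 20.6 in pcYY2, with 862 to 1972 reads a sample. The highest pcYY2 sample was below the lowest pcCon sample. On the log2 scale it fell by 0.44, with an SE of 0.0800 and an adjusted p of 0.0239. DDIT4 passed without pcYY2 sample 1 (adjusted p = 0.0447) or pcYY2 sample 2 (0.0318), but not without pcCon sample 1 (0.0551), pcCon sample 2 (0.0765), pcCon sample 3 (0.0759) or pcYY2 sample 3 (0.0764). Its log2 fold change stayed between -0.50 and -0.37 in these fits.

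TRIB3 (ENSG00000101255), a pseudokinase induced by ATF4 and DDIT3 that inhibits AKT signalling, lies on the plus strand of chromosome 20 from 362835 to 397559. Its FPKM was 10.9, 7.04 and 11.7 in pcCon and 7.18, 8.05 and 7.18 in pcYY2. The pcYY2 samples were below pcCon samples 1 and 3, but pcCon sample 2 was the lowest of all. The log2 fold change was -0.38 (95% interval -0.82 to 0.05, adjusted p = 0.220). Without pcCon sample 2 it was -0.58 and passed (adjusted p = 0.0401), and without pcCon sample 3 it was -0.25 (adjusted p = 0.462), so the value for TRIB3 depends on single control libraries.

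SESN2 (ENSG00000130766), a sestrin that holds back mTORC1 when leucine is low and is also induced by ATF4, lies on the plus strand of chromosome 1 from 28259527 to 28282491. Its FPKM was 7.38, 7.08 and 8.37 in pcCon and 7.96, 7.76 and 7.28 in pcYY2. The groups overlapped fully, and the log2 fold change was 0.03 (95% interval -0.19 to 0.24, adjusted p = 0.878). The interval is narrower than those of DDIT3, TRIB3, ATF5, ATF3 and CHAC1.

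**Figure D3:**
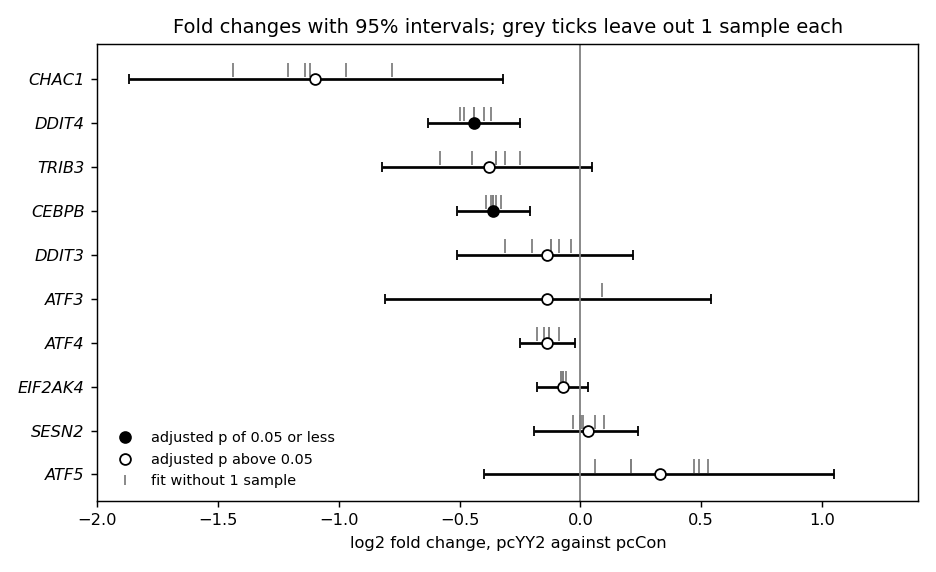
Log2 fold change of pcYY2 against pcCon for each gene with its 95% interval from edgeR's quasi-likelihood fit. Filled points passed an adjusted p of 0.05, grey ticks are the values with 1 sample left out, and ATF3 comes from the fit with the lower filter and has a single tick, since it passed the filter of 1 only without pcYY2 sample 1. The points of DDIT4 (-0.44) and CEBPB (-0.36) are filled, while CHAC1 (-1.10) has a wide interval.

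The stretch before the annotated start is shown for CHAC1, which had the largest fold change, and for CEBPB and DDIT4, which passed the test. The sequences are from RefSeq (GRCh38.p14), on the plus strand and 5′ to 3′, and end at the base before the start of the main transcript. Capitals mark matches of 4 motifs on either strand, namely the C/EBP-ATF response element TGATGNAA, the short site TGACG, the first bases of the cAMP response element (CRE), the CCAAT box and the YY1 and YY2 core AANATGGC. The stretches lie at chr15:40953221-40953470, chr20:50190580-50190829 and chr10:72273674-72273923.
CHAC1: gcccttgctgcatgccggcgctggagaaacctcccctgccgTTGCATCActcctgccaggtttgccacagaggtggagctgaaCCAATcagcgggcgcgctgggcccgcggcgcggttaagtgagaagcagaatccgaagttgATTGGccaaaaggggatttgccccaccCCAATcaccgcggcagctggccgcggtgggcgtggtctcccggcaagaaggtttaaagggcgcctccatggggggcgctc
CEBPB: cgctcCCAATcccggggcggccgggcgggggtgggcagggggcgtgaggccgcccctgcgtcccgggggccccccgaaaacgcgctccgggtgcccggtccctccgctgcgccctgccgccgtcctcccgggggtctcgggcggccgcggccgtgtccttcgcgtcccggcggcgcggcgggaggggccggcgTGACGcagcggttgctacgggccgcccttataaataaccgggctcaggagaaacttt
DDIT4: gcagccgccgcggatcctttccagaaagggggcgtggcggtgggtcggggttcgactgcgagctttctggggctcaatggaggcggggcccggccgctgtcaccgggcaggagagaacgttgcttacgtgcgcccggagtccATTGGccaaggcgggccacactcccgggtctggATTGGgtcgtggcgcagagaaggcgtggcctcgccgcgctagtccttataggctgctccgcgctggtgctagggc

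CHAC1 holds the response element as TTGCATCA on the minus strand, from -209 to -202 relative to its start. Apart from CHAC1, of the 18 listed promoters of the 10 genes (250 bases before to 50 after each start, all 10 genes matched by symbol) only an upstream promoter of ATF3 holds it, as TGATGGAA from -191 to -184. For TRIB3 and ATF3 no listed promoter lies at the start of the main transcript, the nearest being 535 and 6257 bases away. The stretches at those main starts were therefore not searched for any motif. The element occurs in 3.62% of the 35116 RefSeq promoters of this length. CEBPB has the short site from -57 to -53, and ATF4 has it at 2 positions, from -163 to -159 and from -128 to -124. A promoter of ATF5 holds it as well, and it is present in 24.6% of all promoters. The full CRE, TGACGTCA, which contains the short site, occurs in 1.85% of all promoters and in those of 0 of the 10 genes. CCAAT boxes occur in promoters of 6 of the 10 genes, with 3 in CHAC1 and 2 each in DDIT4, DDIT3 and SESN2, and in 34.6% of all promoters. The counts of genes take a match in any listed promoter of a gene, whereas the shares are per promoter, so the 2 are not directly comparable. The YY1 and YY2 core occurs in 6.58% of all promoters and has no match in these windows. The YY2 site that the study proposes in the SLC7A11 promoter lies farther upstream than such windows reach. Its bases do not match this core either, so the search could not have found a site of that kind or at that distance. No binding was measured in these samples, and the matches describe the letters only.

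The main transcripts of the genes (GENCODE 44, MANE Select) differ in their leaders, the part before the coding sequence. ATF4 has a leader of 282 bases with 3 upstream AUG codons, ATF5 one of 315 bases with 2, and DDIT3 one of 177 bases with 3. In each of these 3 leaders, 1 upstream AUG opens a frame that runs into the coding sequence out of register, an arrangement known to link the translation of ATF4 and ATF5 to eIF2 phosphorylation. TRIB3 has 2 upstream AUG codons in 410 bases and SESN2 has 1 in 330 bases, and their frames end before the coding sequence or join it in register. The other leaders, those of ATF3, CEBPB, CHAC1, DDIT4 and EIF2AK4, have 0. Translation was not measured in these samples.

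Many listed targets of ATF4 outside the 10 genes fell. Of 50 genes in 3 lists of ATF4 or DDIT3 targets, 44 were tested, 21 were lower (47.7%, against 4.85% of all tested genes) and 0 were higher, with a median log2 fold change of -0.25 against 0.0020 over all tested genes. The lists were chosen with earlier results of these data known, so these shares describe the listed genes only and are no test. In 30 of the 44, the pcYY2 values lay below all pcCon values, against 19.9% of all tested genes. They lay above all pcCon values in 2 of the 44, against 15.9%. These were SLC38A2 (log2 fold change 0.16) and SQSTM1 (0.19), named after their values were seen, and neither was called. With a sample left out, fewer of the 44 were lower, 13 without pcCon sample 1, 12 without pcCon sample 2 or 3, and 13 without pcYY2 sample 3. In the list of amino acid synthesis and uptake, 8 of 18 tested genes were lower and 0 were higher, and 5 were lower when any single pcCon sample or pcYY2 sample 3 was left out. Asparagine synthetase ASNS fell from an FPKM of 26.7 ± 1.70 (SD, n = 3) to 7.96 ± 0.550, a log2 fold change of -1.73 (adjusted p = 0.000221). PSAT1 of serine synthesis fell from 107 ± 5.04 to 60.9 ± 1.08 (log2 fold change -0.80, adjusted p = 0.00125), and the cystine transporter gene SLC7A11, which the study pursues, fell by 1.05 on the log2 scale (adjusted p = 0.00140). The summed FPKM of the list was 696, 682 and 686 in the pcCon samples and 515, 515 and 511 in the pcYY2 samples, a step that each library shows. Abundant genes weigh most in this sum, chiefly SLC7A5 (a mean of 185 in pcCon and 136 in pcYY2) and PSAT1. The abundant SLC38A2 went the other way (81.6 and 90.1). Of the 18 tested genes, 16 had a negative log2 fold change and 10 were not called.

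In the list of tRNA charging and export, 10 of 13 genes were lower (76.9%, against 4.85% of all tested genes), 0 were higher and the median log2 fold change was -0.40. When any single pcCon sample or pcYY2 sample 3 was left out, 6 genes of this list were lower. IARS1 (log2 fold change -0.48, adjusted p = 0.00157), GARS1 (-0.55, adjusted p = 0.00182) and CARS1 (-0.51, adjusted p = 0.00552), which charge the tRNAs of isoleucine, glycine and cysteine, had the smallest p. The summed FPKM of this list was 428 to 453 in pcCon and 336 to 344 in pcYY2. Among 13 tested genes of the other stress targets, 3 were lower (23.1%, against the same 4.85%) and 0 were higher, with a median of -0.09. In this list, 1 gene was lower without pcCon sample 2 or 3. GDF15, a stress-induced cytokine, fell from 18.4 ± 0.418 to 11.9 ± 1.20 (log2 fold change -0.61, adjusted p = 0.00998). STC2, a secreted glycoprotein, fell by 0.35 (adjusted p = 0.0118, lost without pcCon sample 2 or 3, at up to 0.0754 among all alternatives) and EIF4EBP1, a repressor of cap-dependent translation, by 0.31 on the log2 scale (adjusted p = 0.0364). EIF4EBP1 did not pass in any fit with a sample left out, with adjusted p values up to 0.142 among all alternatives.

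In the machinery on which the kinases act, calls were about as frequent as among all genes. Of 10 genes for eIF2, eIF2B and eIF2 phosphatase subunits, 1 was lower and 0 were higher (against 9.37% of all tested genes in either direction), with a median log2 fold change of 0.10. The lower gene was PPP1R15B, the constitutive subunit that directs the phosphatase to eIF2, with 42.9 ± 0.918 in pcCon and 37.0 ± 0.407 in pcYY2 (log2 fold change -0.20, adjusted p = 0.0321), although it did not pass in any fit with a sample left out. PPP1R15A (GADD34), the subunit that is induced by ATF4, had 10.2 ± 0.392 in pcCon and 12.2 ± 1.14 in pcYY2 and an adjusted p of 0.0816. Its pcYY2 values lay above all pcCon values (log2 fold change 0.28), and it was not among the genes of the 3 target lists. EIF2S2, a subunit of eIF2, differed by -0.19 on the log2 scale and did not pass (adjusted p = 0.0746). Of 11 tested genes among 16 other ATF and C/EBP family bZIP factors, 1 was higher and 0 were lower (9.09%, against the same 9.37%). It was ATF6, a sensor of the endoplasmic reticulum, which rose by 0.25 on the log2 scale (adjusted p = 0.0269, not kept in any fit with a sample left out). CEBPG, a further partner of ATF4, had 20.1 ± 0.264 in pcCon and 17.1 ± 0.894 in pcYY2 (adjusted p = 0.0530), and NFE2L1 differed by 0.30 on the log2 scale (adjusted p = 0.0538).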

How the data were processed

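RNA-Seq of HCT116 cells transfected with pcCon or pcYY2 (3 samples each, grouped by the sample titles) was used. According to the methods, reads were filtered and mapped to GRCh38 with Tophat. The authors deposited raw counts of reads per Ensembl gene. HTSeq is named in the submitters' processing notes, and its strand setting is not given in the sources used here. They also deposited FPKM, which equalled the count over a fixed gene length and the sample total (largest deviation 0.00191% over 12107 genes with at least 50 counts in every sample) and so carries no further scaling. The Cuffdiff output was not used here.

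Counts were tested with edgeR 4.0.16 (quasi-likelihood, TMM, R 4.3.3) over genes whose FPKM averaged 1 or more, with Benjamini-Hochberg adjustment over all tested genes. Standard errors are the log2 fold change over the root of F, and 95% intervals use the t distribution of the fit. No 2 libraries agreed within counting noise. Depth was 15158360 to 29572882 reads per sample. The fit was tested on simulated data, where it missed more of the smaller changes and its share of false calls lay above the nominal level.

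The genes and lists were chosen with earlier results of these data known. Named were the 10 genes, YY2 and at most the 3 genes of each list with the smallest p, while overlapping or remaining genes were named after their values were seen. Alternatives were other filters, upper quartile scaling, size factors, library totals, the replicate block, DESeq2 1.42.0, limma 3.58.1 on log2 FPKM with 2 pseudocounts, the unadjusted p and leaving out each sample. A robust fit and the block with the lower filter were chosen after seeing the data. Motifs and leaders were read from RefSeq promoters and GENCODE 44 with Python 3.11.15.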

Additional observations from a re-analysis of the deposited data

How the results depend on the processing

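Both groups carry the sample numbers 1 to 3. The methods name no pairing, so the numbers were not taken as pairs. Deviations from the group means correlated at -0.0274, -0.0318 and -0.0175 between samples with the same number. With the replicate block, 51 genes were higher and 50 lower, 0 of the 10 genes passed, and 9 of the ATF4 target genes were lower. CEBPB then had an adjusted p of 0.0780 and DDIT4 of 0.0616, with log2 fold changes of -0.36 and -0.44. With the block and the lower filter, the counts were 70, 61, 0 and 9. At an unadjusted p under 0.05, 1727 genes were higher and 1740 lower, 4 of the 10 genes were lower, and 2 of the ATF4 target genes were higher. Leaving out a sample gave 138 to 413 higher and 147 to 394 lower genes, against 543 and 583. It gave 0 to 2 of the 10 genes lower (TRIB3 alone without pcCon sample 2), and 12 to 18 of the target genes lower and 0 to 1 higher, against 21 and 0. Of the calls, 48.2% were higher, against 40.4% with upper quartile scaling, 54.5% with the lower filter and 53.2% with no filter, where higher calls outnumbered lower ones. SESN2 ranged from -0.03 to 0.10 with a sample left out, and changed sign without pcCon sample 1 (-0.00044) and pcCon sample 2 (-0.03). ATF3 changed sign without pcYY2 sample 1 (0.09). CHAC1 was at -0.60 with limma on log2(FPKM + 1), a scale that shrinks low genes. The depth limits CHAC1, DDIT3 and ATF3 most, with 72 to 320 reads per sample.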

Other observations

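Close relatives of the stress effectors moved in both directions. Of 6 genes, all were tested, 2 were lower and 1 was higher, whereas 4.85% of all tested genes were lower and 4.52% were higher. The list was chosen with earlier results of these data known, so its counts describe these genes only and are no test. SESN3, a sestrin like SESN2, fell from an FPKM of 1.31 ± 0.109 (SD, n = 3) to 0.840 ± 0.0803 (log2 fold change -0.63, adjusted p = 0.0222, edgeR). TRIB2, a pseudokinase like TRIB3, fell from 6.95 ± 0.595 to 4.92 ± 0.528 (-0.49, adjusted p = 0.0346). TRIB1 of the same family rose from 65.1 ± 1.97 to 72.9 ± 0.970 (0.18, adjusted p = 0.0362). With a sample left out, SESN3 and TRIB2 each passed in 1 of 6 fits, and TRIB1 in 0. The other genes, named after their values were seen, had log2 fold changes of -0.49 for DDIT4L (adjusted p = 0.0690), -0.23 for SESN1 (0.136) and 0.33 for CHAC2 (0.107). Whether the change of a relative differs from that of its family member among the 10 genes was not tested.

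Chaperone genes of the ATF6 and XBP1 branches, the arms of the unfolded protein response that act beside EIF2AK3, had a median log2 fold change of 0.04 over 15 tested genes. XBP1, a transcription factor, fell from 6.72 ± 0.139 to 4.94 ± 0.192 (log2 fold change -0.43, adjusted p = 0.00918) and passed in all 6 fits with a sample left out. It did not pass with the sample number as a block (adjusted p = 0.0566, edgeR). The chaperone gene HSP90B1 fell by 0.20 on the log2 scale (adjusted p = 0.0232), and MANF, a secreted protein of the endoplasmic reticulum, rose by 0.30 (adjusted p = 0.0453). HSP90B1 passed in 2 of 6 fits with a sample left out and MANF in 0. The summed FPKM of the list was 861 to 877 in pcCon and 852 to 861 in pcYY2.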
